A study of Homo sapiens with 7 samples.

Results

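Libraries G13 and G14 were compared directly with each other. They are 2 of the 7 full-length RNA libraries of a series that used Cas13d, an RNA-guided nuclease that cleaves RNA, for isoform-specific knockdown in HUES66 cells, a human embryonic stem cell line that is long established. The labels give both the genotype of an RBFOX2 isoform knockdown and differ in the RBFOX2 id, 178145 in G13 and 178146 in G14. The other 5 libraries, a control labelled WT and G3, G5, G11 and G12, took no part in the contrast and are given only for position. All 7, the control included, are described as piggyBac, had doxycycline at 1 µg/ml, and carry the time 24 h and replicate 1. The labels do not say which isoform an id denotes, or whether a culture was a clone or a pool. Each side was a single library, so nothing below could be checked against a replicate, and the intervals cover the error of counting reads and nothing more. In bulk RNA, fewer cells of a type and less RNA per cell cannot be told apart.

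RBFOX2 encodes an RNA-binding protein that regulates alternative splicing and is expressed in human embryonic stem cells. Its own transcripts start at alternative first exons and are themselves alternatively spliced. An acceptor, or 3′ splice site, usually ends in AG at the intron border. Where acceptors lie side by side as NAGNAG, the spliceosome can use either, and the mRNA gains or lacks a single triplet.

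The RBFOX2 exon at issue has such a pair of acceptors 3 nt apart on the minus strand of chromosome 22 (GRCh38, GENCODE 29). It starts at 35781746 in the longer form or at 35781743 in the shorter form, ends at 35781600, and follows an exon whose edge lies at 35809780. The acceptor lies within the coding span of ENST00000397303. Both spliced sequences are shown because the triplet distinguishes the 6 annotated isoforms on which the splice choice was compared. They are GENCODE 29 transcript sequences of 24 bases on each side, with the extra triplet in capitals.
RBFOX2 longer form: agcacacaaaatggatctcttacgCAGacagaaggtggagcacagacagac
RBFOX2 shorter form: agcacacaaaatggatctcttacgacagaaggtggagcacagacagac

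Library totals, inferred from the ratio of deposited counts to deposited TPM, were 22794339 reads in G13 and 20946299 in G14. Those of the other 5 were 16801851 to 26678536. Isoforms listed in the table took 98.6% of the inferred total in G13 and 98.4% in G14. A floor of 3 reads was worth 0.132 TPM in G13 and 0.143 TPM in G14. TPM here is a read count relative to library depth, uncorrected for transcript length. Pluripotency markers summed to 1622 TPM in G13 and 1704 in G14 (1596 to 2027 over the 7 libraries), and SOX2 had no listed isoform in any of the 7. Markers of mesoderm, endoderm and trophoblast summed to at most 2.41 TPM in any library. Fibroblast markers summed to 4.21 and 7.83 TPM, below the 9.41 to 38.5 of the other 5, and COL3A1, DCN and LUM were at 0. Neural ectoderm markers summed to 110 TPM in G13 and 131 in G14, with PAX6, SOX1, NES and ZIC1 at 0. Every listed isoform had a read in the control, so a marker isoform absent from the control could not appear in G13 or G14. The zeros and low sums therefore cannot show whether such a marker was expressed there. The part of these markers in the differences below was not tested.

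RBFOX2 itself was lower in G13 than in G14, and its isoforms differed far more than its total. The RBFOX2 total was 55.9 TPM in G13, 106 in G14, 88.5 in G12, 82.9 in G11, 96.8 in G5, 42.1 in G3 and 107 in the control. G14 was thus next to the control, and G13 lay between G3 and the other libraries. The total rested on 1275 reads in G13 and 2216 in G14, a 1.89-fold higher level in G14 (95% Clopper-Pearson interval 1.76 to 2.03). On the log2 scale with 0.5 TPM added, the difference of G13 from G14 was -0.91. Summed over reference transcript IDs alone it was -2.13, because most RBFOX2 reads of G13 fell on isoforms that carry a hashed ID of the table in place of a reference ID.

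The isoforms were compared next, since the series aimed at single isoforms. Of 106 listed RBFOX2 isoforms, 21 had at least 10 reads over both libraries. Among these 21, 8 were at least 2-fold higher in G13, 10 were at least 2-fold higher in G14 and 3 lay within 2-fold. The 8 held 74.4% of RBFOX2 reads in G13 and 5.55% in G14. The 10 held 19.3% in G13 and 90.3% in G14. Both sets were picked by this same difference, so their shares give its size and are not separate support for it. The leading isoforms of each set had reads in both libraries.

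First exons did not divide those sets. Isoforms whose 5′ end lay within 300 nt of the start of the proximal first exon (35840284) were classed as proximal. Those whose 5′ end lay near the start of the distal first exon (36028425), or anywhere upstream of it, were classed as distal. Of 13 proximal isoforms, 5 were at least 2-fold higher in G13 and 5 in G14. Of 5 distal isoforms, 2 were higher in G13 and 3 in G14. The remaining 3 started elsewhere, with 1 higher in G13 and 2 in G14. Among reads of either class, the proximal share was 86.8% in G13 and 77.3% in G14.

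Higher in G14 were the 2 most abundant annotated isoforms, both with the shorter form of the exon. ENST00000416721.6 (chr22:35743911-35840482, proximal, 26.7% of RBFOX2 on average) had 5.75 TPM in G13, 45.2 in G14, 15.6 in G12, 38.5 in G11, 34.8 in G5, 3.31 in G3 and 28.1 in the control. G14 was the highest of the 7 libraries and G13 the lowest but one. Its 131 reads in G13 against 947 in G14 made it 7.87-fold higher in G14 (6.55 to 9.52), and its share of RBFOX2 was 10.3% against 42.7%. ENST00000449924.6 (chr22:35738737-35840482, proximal, 14% on average) had 3.38 TPM in G13, 24.7 in G14, 24.9 in G12, 1.78 in G11, 19.5 in G5, 2.24 in G3 and 13.99 in the control. It was low in G3, G11 and G13 and highest in G12 and G14. Its 77 against 517 reads made it 7.31-fold higher in G14 (5.74 to 9.41).

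Hashed isoform 3 (chr22:35743911-36028777, distal) was also higher in G14. It had 0.658 TPM in G13, 12.4 in G14, 2.81 in G12, 7.73 in G11, 0.982 in G5, 10.9 in G3 and 9.28 in the control, so that G13 was the lowest and G14 the highest of the 7. With 15 against 259 reads it was 18.8-fold higher in G14 (11.2 to 34.1). Hashed isoform 4, also distal and chosen after its values were seen, had 8 against 177 reads and was 24.1-fold higher in G14 (12 to 56.6).

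Higher in G13 were the 2 most abundant proximal isoforms with a hashed ID. Hashed isoform 1 (chr22:35743138-35840486, 16.8% on average) had 20.8 TPM in G13, 2.34 in G14, 10.5 in G12, 21.9 in G11, 18.7 in G5, 2.63 in G3 and 15.5 in the control. G14 was the lowest of the 7 and G13 within the range of the other 5. Its 473 against 49 reads made it 8.87-fold higher in G13 (6.60 to 12.2), with 37.1% of RBFOX2 reads against 2.21%. Hashed isoform 2 (chr22:35742418-35840464, 8.92% on average) had 12.8 TPM in G13, 1.91 in G14, 13.7 in G12, 0.576 in G11, 10.6 in G5, 1.62 in G3 and 7.14 in the control. G13 was again near the top and G14 close to G3. Its 292 against 40 reads made it 6.71-fold higher in G13 (4.81 to 9.58).

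Distal isoforms with a reference ID went the same way, though at lower levels and chosen after their values were seen. ENST00000695854.1 had 3.55 TPM in G13 and 0.812 in G14, from 81 and 17 reads, and was 4.38-fold higher in G13 (2.57 to 7.88). ENST00000438146.7, which has the longer form of the exon, had 1.93 and 0.430 TPM from 44 and 9 reads, and was 4.49-fold higher in G13 (2.16 to 10.5).

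**Figure D1:**
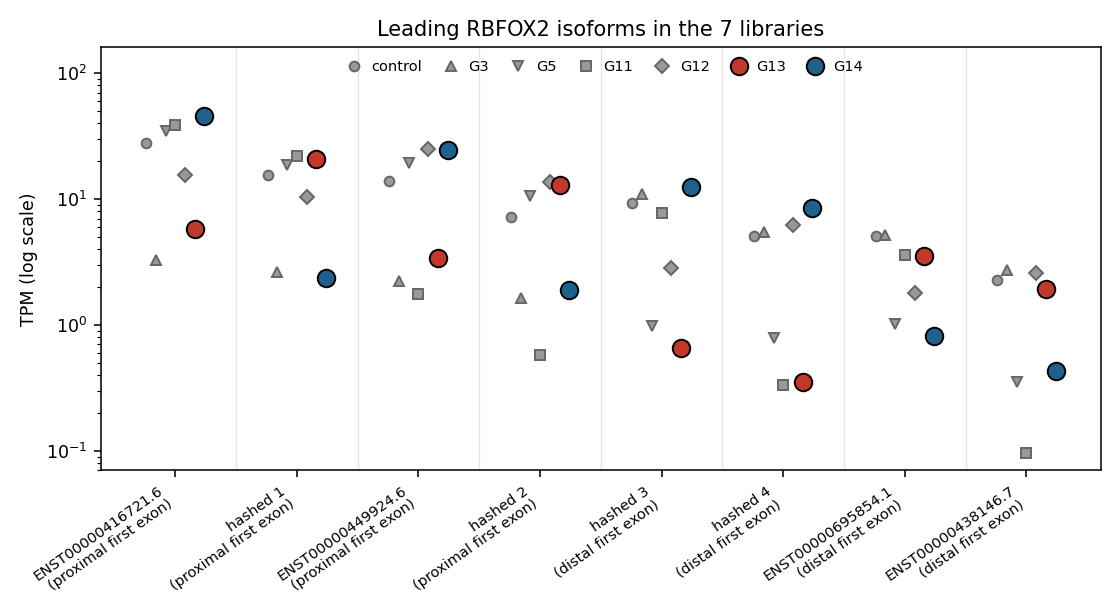
TPM on a log scale of the 8 leading RBFOX2 isoforms in each of the 7 libraries, 1 point per library, with G13 in red, G14 in blue and the other 5 in grey. G14 lies above G13 in ENST00000416721.6, ENST00000449924.6 and hashed isoforms 3 and 4, and below it in the other 4, from 45.2 against 5.75 TPM in the first isoform to 0.430 against 1.93 in the last.

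Of the 6 annotated isoforms that carry either form of the exon, those at least 2-fold apart differed in opposite directions when sorted by the triplet. Of those with the shorter form, ENST00000416721.6 and ENST00000449924.6 were higher in G14, and ENST00000414461.6 had 8 reads in G13 and 11 in G14. Of those with the longer form, ENST00000438146.7 was higher in G13. ENST00000397303.6 had 17 reads in G13 and none in G14, at least 5.21-fold higher in G13 against the floor of 3 reads in the single library. ENST00000405409.6 had 8 and 5 reads. For ENST00000414461.6 and ENST00000405409.6 the intervals of the ratio included equal levels.

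Over these 6 isoforms the longer form, with CAG, took 24.2% of reads in G13 (69 of 285, Wilson interval 19.6 to 29.5) and 0.940% in G14 (14 of 1489, 0.561 to 1.57). It took 6.85% in G12, 2.89% in G11, 3.13% in G5, 36.9% in G3 and 9.22% in the control. G14 was below all other libraries, and G13 was below G3 alone. The shorter form was nevertheless the majority in both, at 75.8% in G13 and 99.1% in G14, so the choice shifted by 23.3 points and was not opposite on annotated isoforms.

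The shift was small among isoforms that start at the proximal first exon. There the shorter form held 96.4% of reads in G13 (216 of 224, 93.1 to 98.2) and 99.7% in G14 (1475 of 1480, 99.2 to 99.9), a difference of -3.23 points. Most of the longer-form reads of G13 belonged to ENST00000438146.7 and ENST00000397303.6, which start elsewhere. The 6 isoforms also held only 22.4% of RBFOX2 reads in G13 (285 of 1275) but 67.2% in G14 (1489 of 2216). The exon structure of hashed isoforms was not analysed here, so the form carried by the leading isoforms of G13 is not known. Nor is it known for the distal hashed isoforms 3 and 4, which had 259 and 177 reads in G14. The only distal isoform among the 6 was ENST00000438146.7, with the longer form and 9 reads in G14. A neighbouring RBFOX2 exon with acceptors 12 nt apart had its shorter form in 54.7% of annotated reads in G13 and 63.9% in G14.

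Against all genes, RBFOX2 was the gene whose isoform usage differed most. Usage was compared by the total variation distance, the share of reads that would have to change isoform to make the libraries equal, from 0 to 1. Over 7285 genes with at least 100 reads in each library the median distance was 0.0453 and the 95th percentile 0.193. The distance of RBFOX2 was 0.737, rank 1 of 7285, and MAP3K11, a protein kinase, followed at 0.494. In all, 45 genes reached 0.3, which is 0.618% of those compared, and 25 of them (0.343%) also had another leading isoform. RBFOX2 ranked first as well with at least 30 or 300 reads per gene and with isoforms of a mean TPM of at least 1. With reference IDs alone it was second, at 0.404 after ALG13 at 0.446.

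Among the 21 pairs that the 7 libraries form, RBFOX2 usage lay farthest apart in G13 and G14. The next pairs were G3 and G5 at 0.662, G3 and G11 at 0.626, and G3 and G13 at 0.583. The nearest pair was the control and G5 at 0.286. The pairs share libraries, so these values describe an order and are not independent.

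**Figure D2:**
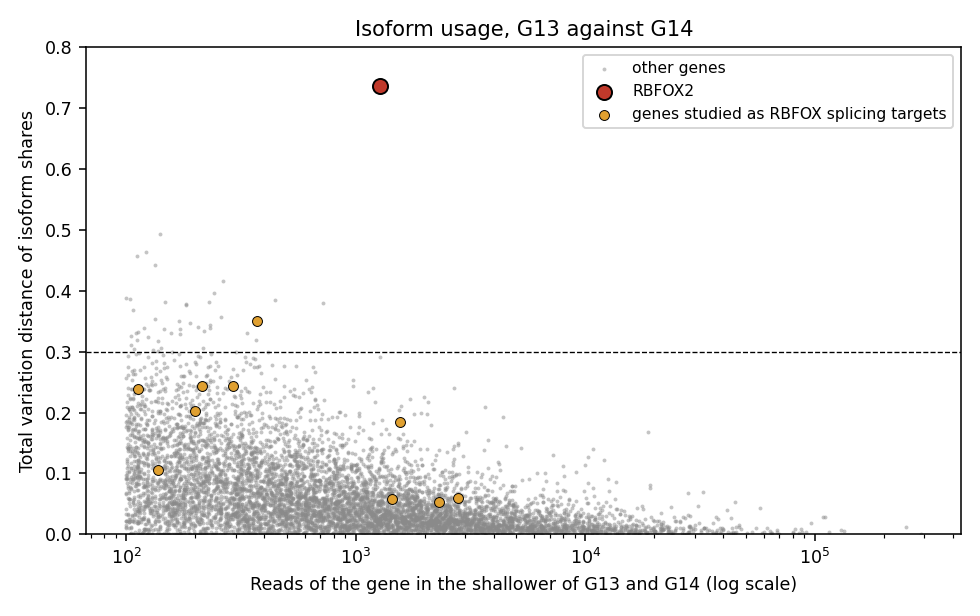
Total variation distance of isoform shares between G13 and G14 for each of 7285 genes against the reads of the gene in the shallower library (log scale), with the 0.3 line dashed. RBFOX2 (red) stands at 0.737, above every other gene, and the cloud of the other genes widens toward low read counts.

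Genes studied as RBFOX splicing targets had a median distance of 0.193 over the 10 with enough reads, against 0.0453 for all genes. EPB41, a membrane skeleton protein gene, had 0.35. FGFR1 (a growth factor receptor) and PICALM (clathrin assembly) had 0.24 each, and PTBP2, itself a splicing regulator, had 0.20. ECT2 had 0.18 and ENAH 0.10, while EPB41L2, MYH10 and MAP3K7 had 0.05 to 0.06. Several of these genes were shallow, and distance was wider at low reads over all genes. The median was 0.059 over the 5 targets with at least 300 reads, where all genes had 0.0357. With reference IDs alone it was 0.036 over 7 targets, where all genes had 0.00833.

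Beyond RBFOX2, the genes with the largest distances at 300 reads or more were ALG13 (0.38), GINS4 (0.38), EPB41 (0.35), ARMCX6 (0.33), ODF2L (0.32), TSC22D4 (0.30), TFDP1 (0.30), PTOV1 (0.29) and NUP43 (0.29). In ALG13, a glycosylation gene on the X chromosome, the short isoform ENST00000371979.7 (chrX:111681114-111688966) took 20.8% of reads in G13 and 2.70% in G14, against 5.17% to 19.5% in the other 5. The long isoform ENST00000394780.8 took 22.8% and 37.5%. For the short isoform, G13 thus stood above and G14 below all of the other 5.

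GINS4, a subunit of the GINS complex of DNA replication, used ENST00000276533.4 for 32.9% of reads in G13 and 8.73% in G14, with 15.9% to 31.5% in the other 5. TSC22D4 used ENST00000300181.7 for 25.9% in G13 and 52.8% in G14, with 41.5% to 71.5% in the others, so here G13 was the library outside their range. ENST00000393991.5 of TSC22D4 took 46.2% and 25.7%. ARMCX6 used ENST00000361910.9 for 40.4% in G13 and 68.8% in G14, and both values were within the range of the other 5. In ODF2L a hashed isoform took 44.3% and 20.3%, and a longer hashed isoform 22.7% and 42.5%.

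The comparison was then extended to other genes with an annotated pair of acceptors 3 nt apart. Of such pairs among listed isoforms in GENCODE 29, 302, in 287 genes, had at least 20 reads in each library. In 20 of the 302 (6.62%) the share of the longer form differed by at least 10 points, with the longer form higher in G13 in 14 and in G14 in 6. Among 1031 acceptor pairs at other distances up to 100 nt, 41 (3.98%) differed by as much. The median absolute difference at 3 nt was 1.73 points and the median signed difference 0. The acceptor of RBFOX2 had the second largest difference at 3 nt.

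The other acceptors with the largest differences, and the deepest of the 20, are shown in the longer form with the extra triplet in capitals, 24 bases of GENCODE 29 transcript on each side. All 5 lie within the coding span of the transcript they were read from.
PTBP2 (chromosome 1, plus strand, exon start 96813273 or 96813276): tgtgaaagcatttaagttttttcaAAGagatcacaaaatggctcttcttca
AMOTL2 (chromosome 3, minus strand, 134358719 or 134358716): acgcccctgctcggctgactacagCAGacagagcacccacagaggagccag
TUT4 (chromosome 1, minus strand, 52436978 or 52436975): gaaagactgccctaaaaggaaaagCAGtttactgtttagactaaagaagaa
NR6A1 (chromosome 9, minus strand, 124538319 or 124538316): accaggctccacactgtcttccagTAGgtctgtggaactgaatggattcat
TFDP2 (chromosome 3, minus strand, 141974194 or 141974191): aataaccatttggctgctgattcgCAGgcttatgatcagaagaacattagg

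PTBP2 had the largest difference of the 302, in the direction opposite to RBFOX2. The longer form, with AAG, took 30% of reads in G13 (12 of 40, 18.1 to 45.4) and 56.4% in G14 (31 of 55, 43.3 to 68.6), and 40.0% to 54.4% in the other 5. G13 was below and G14 above all others, but the intervals of the pair overlapped. AMOTL2, which encodes an angiomotin family protein of cell junctions, had 93.5% (29 of 31) and 72.9% (51 of 70). TUT4, a uridylyltransferase that acts on RNA ends, had 61.5% (24 of 39) and 80% (32 of 40).

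Deeper events gave smaller but better determined differences. NR6A1, an orphan nuclear receptor gene, had the longer form in 76.8% of reads in G13 (146 of 190, 70.3 to 82.3) and 59.6% in G14 (146 of 245, 53.3 to 65.5). The other 5 libraries had 67.3% to 74.7%, so G13 was above and G14 below them. TFDP2, which encodes a dimerization partner of E2F factors, had 52.1% in G13 (777 of 1490, 49.6 to 54.7) and 41.8% in G14 (545 of 1305, 39.1 to 44.5). Both were below the 53.3% to 65.2% of the other 5.

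In 13 of the 302 events the Wilson intervals of G13 and G14 did not overlap. They included RBFOX2, NR6A1, TMEM25, TFDP2, ZNF419, PCDH18, AP2A2, GSPT1, CD99, SDCBP, MRPL42 and ALG8. GSPT1, the translation termination factor eRF3a, had 85.0% in G13 and 80.4% in G14. The extra triplet ended in AG in 299 of the 302 events, as CAG in 214, AAG in 42, TAG in 36 and GAG in 7. Of the 20 events that differed by at least 10 points, 16 had CAG, 3 AAG and 1 TAG.

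**Figure D3:**
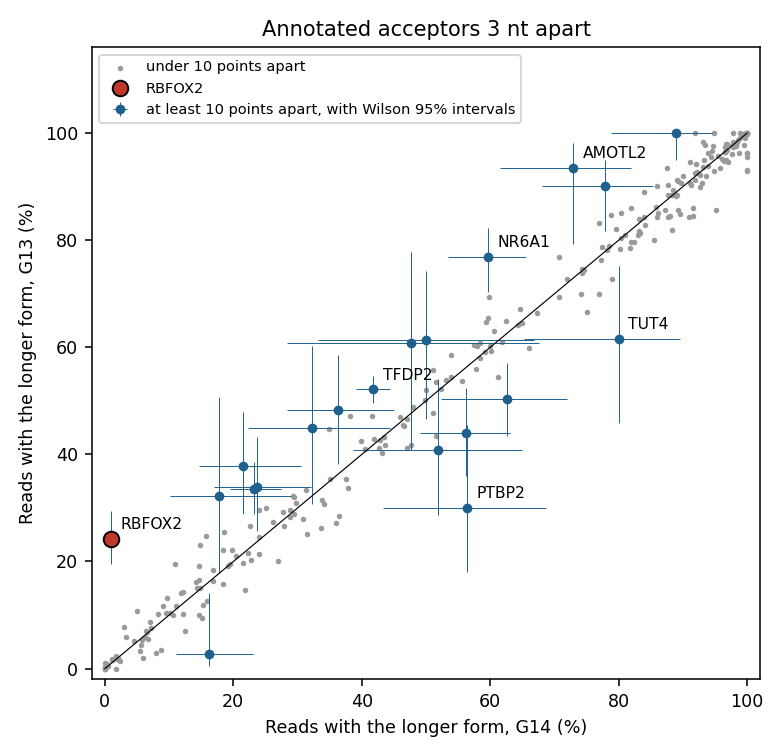
Share of reads with the longer form in G13 against G14, in percent, for 302 annotated acceptor pairs 3 nt apart, with the diagonal of equal shares and Wilson 95% intervals for the 20 events at least 10 points apart. RBFOX2 lies at 24.2% in G13 and 0.940% in G14, at the lower left above the diagonal, and most events lie within a few points of it.

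Gene totals were compared for 7877 genes with a mean of at least 5 TPM over the 7 libraries. In G13, 84 genes (1.07%) were at least 2-fold higher, and in G14, 234 (2.97%), or 318 (4.04%) in all. The median log2 difference over all genes was -0.21, so the split depends on scaling. With libraries scaled by the median of ratios, a shift of 0.21, the counts were 475 and 143, which raised the share of calls on the G13 side from 26.4% to 76.9%. The 2-fold counts below use the deposited scale, and each should be read against that shift. RBFOX2, at -0.91, did not reach 2-fold.

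Among the 84 genes higher in G13, G14 was below all of the other 5 libraries in 74, and G13 was above them in 5. Among the 234 higher in G14, G13 was below the other 5 in 212 and G14 above them in 5. In 94 of these 234 both libraries were below all others. Over all 7877 genes, G13 was the lowest of the 7 libraries in 2425 and G14 in 1671, and a 2-fold call itself favours genes in which 1 of the pair is low. A gene with both libraries below the other 5 enters only 1 of these totals. The share of all genes with G13, G14 or both below the other 5 is not given here, so the position counts have no like background.

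The largest differences on the G13 side, among genes with a mean of at least 20 TPM, began with PSMC3IP, a meiotic and recombination cofactor (chr17:42572315-42577831, minus strand). PSMC3IP had 95.5 TPM in G13, 14.3 in G14, 68.1 in G12, 45.2 in G11, 20.8 in G5, 10.1 in G3 and 82.0 in the control. G13 was the highest of the 7 and G14 close to G3. It was 6.69-fold higher in G13 (5.92 to 7.57). RABGGTB, a gene for an enzyme subunit that attaches lipid to Rab proteins, lay below that mean and was chosen after its values were seen. It had 14.9 TPM in G13 and 1.62 in G14.

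MRPL39, a mitochondrial ribosomal protein gene (chr21:25585656-25607517, minus strand), had 246, 100.9, 263, 206, 191, 196 and 385 TPM in the same order of libraries and was 2.44-fold higher in G13 (2.32 to 2.57). BST2, which encodes the antiviral membrane protein tetherin (chr19:17402939-17405648, minus strand), had 125, 52.7, 112, 83.8, 82.4, 97.6 and 270.3 TPM. In both, G14 was below all others and G13 was in their range. CKS2, a subunit of cell cycle kinases, had 89.5 TPM in G13 and 38.0 in G14 and was 2.36-fold higher in G13. MYL9, a myosin light chain gene, had 91.9 and 39.5 TPM and was 2.33-fold higher.

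The other 10 of the 15 leading genes included PMF1 (kinetochore), MANF (a secreted stress-response factor), NOSIP, FTH1, TAGLN (an actin-binding protein), CHMP4A (an ESCRT subunit), TCEAL3, HSD17B10 (a mitochondrial dehydrogenase) and UPP1 (uridine phosphorylase). The 10 were 2.16-fold to 2.28-fold higher in G13. FTH1, the ferritin heavy chain gene, had 1008 TPM in G13 and 458 in G14. FTH1 has many processed pseudogenes, so its reads may be split and its value is uncertain. The 15 spanned log2 differences of 1.10 to 2.70, and 14 of them were shorter than the median transcript length of the genes compared.

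The largest differences on the G14 side were led by VARS1, the valyl-tRNA synthetase gene (chr6:31777518-31795953, minus strand). VARS1 had 3.11 TPM in G13, 16.2 in G14, 16.3 in G12, 25.7 in G11, 72.5 in G5, 111 in G3 and 75.2 in the control. Both libraries were below all others, and VARS1 was 5.20-fold higher in G14 (4.01 to 6.81). SREBF2, which encodes a transcription factor of cholesterol synthesis, was also lower in both than in any other library, with 4.34 TPM in G13 and 17.5 in G14, 4.03-fold higher in G14. TMEM129 had 2.33 and 11.4 TPM and MAP7D1 1.54 and 7.40.

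Another set was higher in G14 than in every other library but G3. TENT5B (chr1:27005020-27012836, minus strand) had 16.2 TPM in G13, 69.6 in G14, 19.1 in G12, 24.6 in G11, 39.9 in G5, 114 in G3 and 46.0 in the control, and was 4.30-fold higher in G14 (3.83 to 4.83). KDM1A, the histone demethylase LSD1 (chr1:23019443-23083689, plus strand), had 9.34, 34.9, 11.4, 12.1, 17.1, 97.5 and 21.3 TPM in the same order and was 3.73-fold higher (3.20 to 4.37). GSPT1 (chr16:11868128-11916082, minus strand) had 42.5, 139, 38.8, 46.1, 57.1, 181 and 58.0 TPM and was 3.28-fold higher (3.05 to 3.53). G13 was the lowest library for TENT5B and KDM1A and within the range of the other 5 for GSPT1. KHDRBS1, the splicing regulator Sam68, had 12.9 TPM in G13 and 42.8 in G14 and was 3.32-fold higher, but the control (45.4 TPM) and G3 (127 TPM) were both above G14.

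TTC19, an assembly factor of respiratory complex III, had 28.95 and 105 TPM, and DONSON, a replication fork protein, 16.2 and 53.4. The remaining genes of these 15 were MAP1S (microtubules), CBX2 (a Polycomb subunit), MAP2K7 (a kinase upstream of JNK), EDC4 (mRNA decapping) and RPAP1 (an RNA polymerase II partner). These last 5 were 3.32-fold to 3.87-fold higher in G14. Log2 differences of the 15 ran from -2.21 to -1.63, and 3 of the 15 were shorter than the median length.

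Transcript length moved with the gene differences across the whole table. With 7736 genes divided into 5 bins of equal size by length, the median log2 difference was 0.61 in the shortest bin (207 to 1615 nt), -0.13 in the next, then -0.31, -0.34 and -0.32 in the longest (4250 to 27174 nt). The shortest bin held 69 of the genes at least 2-fold higher in G13 and 8 of those higher in G14. Median length was 1110 nt among genes higher in G13, 3476 nt among genes higher in G14 and 2603 nt over all. Median GC content was 57.6%, 60.2% and 47.9%. Among long genes the difference was largest at high GC, with a median of -0.75 over 202 genes in the fourth length bin and the highest GC bin, where 56 were at least 2-fold higher in G14.

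A quadratic surface in log2 length and GC accounted for 41.9% of the variance of the differences. Once it was subtracted, 94 genes were at least 2-fold higher in G13 and 91 in G14, of which 15 and 63 were among the earlier calls. The difference stayed at least 2-fold in 3 of the 15 leading genes on the G13 side, among them PSMC3IP (2.42) and MYL9 (1.62), and in 11 of the 15 on the G14 side. TENT5B then stood at -1.76, KDM1A at -1.59, KHDRBS1 at -1.54, GSPT1 at -1.41 and VARS1 at -1.38. RBFOX2 moved from -0.91 to -1.10. Within genes, annotated isoforms were at least 5% shorter on average in G13 in 180 of 4745 genes and at least 5% longer in 74. The part of length and GC in any single gene's difference was not tested.

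**Figure D4:**
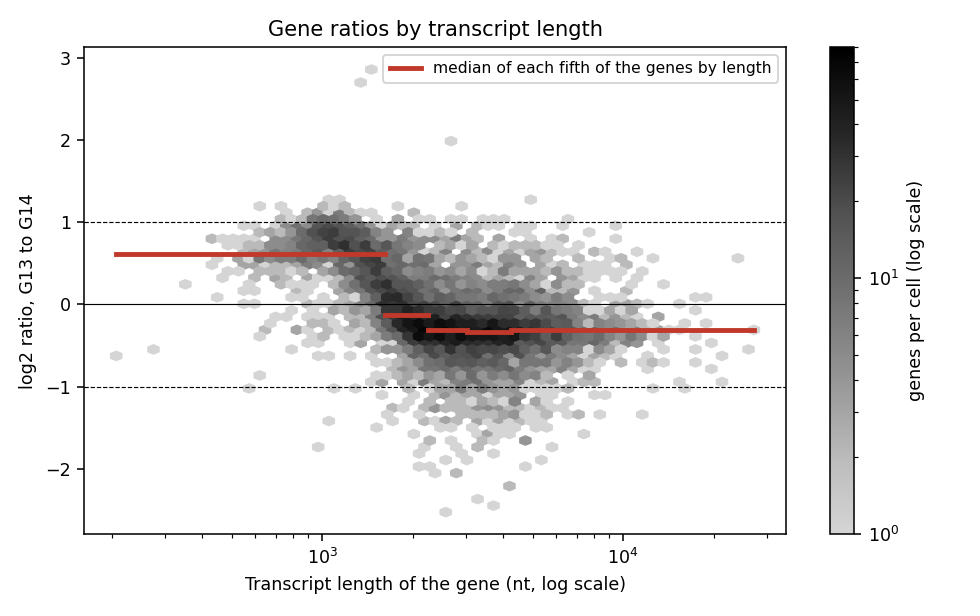
Log2 ratio of G13 to G14 against transcript length in nt (log scale) for 7736 genes, shaded by genes per cell, with the 2-fold lines dashed and the median of each of 5 length bins in red. The medians step from 0.61 in the shortest bin to -0.32 in the longest.

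Lists of short genes stood highest. Cytosolic ribosomal protein genes had a median log2 difference of 0.63 over 70 genes, 68 of them above 0 and none at 2-fold, with a median length of 979 nt and a median of 0.06 once the surface was subtracted. Mitochondrial ribosomal protein genes had 0.72 over 74, with MRPL39, MRPL52, MRPL12 and MRPS11 at least 2-fold higher in G13, and 0.37 after subtraction. Respiratory chain subunits had 0.59 over 70, with ATP5F1D and ATP5MJ at 2-fold, and 0.13 after. Proteasome subunits had 0.65 over 34, with PSMA5 (256 TPM in G13 and 121 in G14) at 2-fold, and 0.31 after. These 4 lists compare with -0.21 for all genes, or -0.05 after subtraction. The surface did not remove the whole length trend. It left a median of 0.21 in the shortest length bin (207 to 1615 nt), where the median lengths of all 4 lists fall. Over all 7877 genes, 2732 were above 0 and 84 (1.07%) were at least 2-fold higher in G13. With the median of ratios, 6 of 26 list medians changed sign, those of translation factors, 3′ splice site recognition, the second splicing step, cytoskeletal genes, RBFOX partner proteins and interferon response.

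The lists of splicing genes are read against 4.04% of all genes at 2-fold. Genes of 3′ splice site recognition, the U2AF and SF3 proteins that find the acceptor, had a median of -0.13 over 13, from -0.50 in U2AF2 to 0.84 in PHF5A, with none at 2-fold and 0.11 after subtraction. U2AF1 and SF3B5 of this list had no listed isoform in any library, the control included, so they were not compared. Factors of the second splicing step, at which the acceptor is joined, had -0.15 over 8, none at 2-fold and 0.18 after. SR proteins had 0.00 over 12 and HNRNP genes -0.28 over 18, also with none. RBFOX partner proteins of the LASR complex had -0.17 over 7. Of 11 other splicing regulators, all below 0 with a median of -0.42, KHDRBS1 was at least 2-fold higher in G14.

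Genes studied as RBFOX splicing targets were all below 0, with a median of -0.45 over 11 and a median length of 5717 nt. Of all 7877 genes, 5145 were also below 0, with a median of -0.21, and 2.97% were at least 2-fold higher in G14. FGFR1 had 9.39 TPM in G13 and 24.8 in G14 (-1.36), and CLSTN1, a calsyntenin gene, 0.79 and 3.68 (-1.70). The other 9 did not reach 2-fold, and the median after subtraction was -0.17, with ENAH (0.07), EPB41 (0.05) and MYH10 (0.11) then above 0. RBFOX1 had 0.13 TPM in G13 and 0.43 in G14, and RBFOX3 was at 0 in both, so RBFOX2 supplied nearly all listed reads of the family.

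Lists of cell state are read against 1.07% of all genes at least 2-fold higher in G13 and 2.97% in G14. Calls fell only in DNA replication and nonsense-mediated decay, and the lists are too small to compare shares. Pluripotency genes had a median of -0.32 over 11 with none at 2-fold, and POU5F1, the pluripotency factor OCT4, had 566 TPM in G13 and 377 in G14 (0.58). Chaperonin subunits lay between -0.29 and -0.20. Stress response genes had -0.26 over 10 and interferon response genes -0.18 over 5, both with none at 2-fold. Of 35 DNA replication genes, POLD1 and CDT1 were at least 2-fold higher in G14, and of 23 mitosis genes none was. Nonsense-mediated decay factors, which remove transcripts with early stop codons, had -0.31 over 10, with SMG5 at 3.64 TPM in G13 and 9.83 in G14.

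Calls in the metabolic, transport and remaining lists are given against 1.07% of all genes higher in G13 and 2.97% higher in G14. At least 2-fold higher in G14 were PFKL among 17 glycolytic enzymes, LSS among 19 genes of cholesterol synthesis, and SLC25A22, SLC38A10, SLC45A3, SLC4A2 and SLC7A5 among 136 solute carriers, the last a share near that of all genes. Among 239 ZNF zinc finger genes, ZNF672 and ZNF784 were at least 2-fold higher in G14 and ZNF771 in G13. Of 51 translation factors, EIF3G, EIF6 and EEF1D were at least 2-fold higher in G13, and of 14 cytoskeletal genes, TPM2 and MYL9. Host genes of snoRNAs had a median of 0.43 over 4, with none at 2-fold and 0.31 after subtraction.

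**Figure D5:**
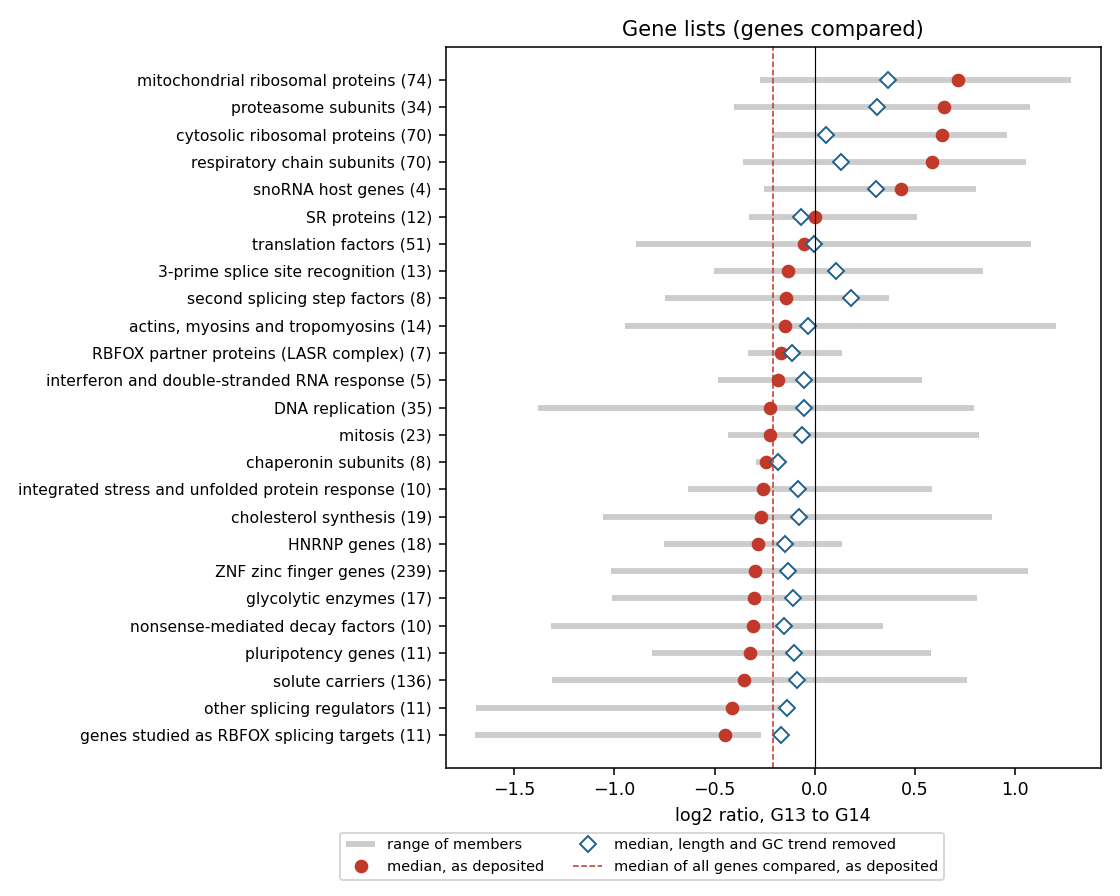
Log2 ratio of G13 to G14 for the gene lists, with the number of genes compared in brackets, the range of members as a bar, the median on the deposited scale as a red point and the median with the length and GC surface removed as an open diamond. Mitochondrial and cytosolic ribosomal protein, proteasome and respiratory chain lists stand highest, from 0.59 to 0.72, and move to between 0.06 and 0.37 once the surface is removed.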

How the data were processed

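Per the labels' protocols, cDNA was joined into 8-fold arrays (MAS-Seq) and sequenced on the Revio system. Alignment used minimap2 2.17 to GRCh38, per the submitters' processing notes. The isoform caller, its annotation and its filters are not given in the sources used here. The deposited table gives, per the file headers, for each isoform and library, a count of full-length reads and a TPM. Within a library the deposited TPM is proportional to the count, by a single factor, with deviations of at most 0.01. All 386982 listed isoforms had at least 1 read in the control, and empty cells were read as 0.

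Counts were summed to 14294 genes by Ensembl ID, 14287 with a symbol. Where IDs shared a symbol, the one with the higher mean TPM was kept. Of 31693 reference transcript IDs, 28379 matched GENCODE 29 by stem, which supplied exons, length, GC content and sequences. Isoform starts are printed with 1 added and may be off by a base. Differences are log2(TPM + 0.5), which understates those of low genes. No p-value was computed, as each group had 1 library. Ratios have Clopper-Pearson and shares Wilson intervals at 95%. Reads carry no molecular identifiers, so intervals and the floor cover counting error only. Named genes were RBFOX2, its isoforms of at least 5% on average, the 15 genes per direction with the largest difference at a mean TPM of at least 20, the 10 largest usage distances at 300 reads and the 5 largest acceptor differences. A few named genes and 1 gene list are not reported here. Members and gene lists were chosen with earlier results of these data known. Isoform length shifts and the order of library pairs were added after seeing the data. The code, run in Python 3.11.15 with numpy 2.4.6, pandas 2.3.3, scipy 1.17.1 and matplotlib 3.10.9, was tested on simulated data.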

Additional observations from a re-analysis of the deposited data

How the results depend on the processing

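No paired analysis was possible because every group had 1 library, so no replicate could be left out either. Genes at least 2-fold higher numbered 84 in G13 and 234 in G14. They numbered 52 and 94 at a mean TPM of at least 20, 133 and 384 with no filter, 475 and 143 with the median of ratios, 1061 and 908 at 1.5-fold, and 2 and 8 at 4-fold. With the length and GC surface removed, 91 genes were higher in G14. The RBFOX2 log2 difference of -0.91 was -0.70 with the median of ratios and -2.13 with reference IDs alone. The difference in the shorter RBFOX2 form of -23.3 points was -3.23 with the proximal first exon alone and -16.8 with isoforms of a mean TPM of at least 1. The median usage distance of 0.0453 was 0.0173 with isoforms of a mean TPM of at least 1 and 0.00833 with reference IDs alone. The 25 genes with another leading isoform and a distance of at least 0.3 became 8 at a mean TPM of at least 1, 127 at 30 reads and 5 at 300 reads. The 20 acceptors at least 10 points apart became 12 at 50 reads, 3 at 20 points and 11 at a mean TPM of at least 1. With transcripts of the same version alone, 21 were called and RBFOX2 differed by 10.0 points, as ENST00000438146.7 was left out. G14 lay outside the other 5 in 88.1% of genes higher in G13, and in 74.9% at 1.5-fold, and the share over all genes is not given here. The same-version set and the 1.5-fold position were chosen after seeing the data, as was the length-bin comparison, whose difference of 0.93 between the shortest and longest bins stayed between 0.90 and 0.97 under its 4 settings. Causes were not tested. Depth limits low isoforms: under 3 reads a level cannot be told from 0.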
